A study of Mus musculus with 119 samples.

Results

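En1, En2, Pitx3, Nr4a2, Foxa1, Foxa2 and Lmx1b, transcription factors that specify and maintain midbrain dopaminergic neurons, were followed through the whole series. These 7 genes were taken by name from the 55291 genes in the deposited gene count tables. Female and male mice, labelled C57BL/6J and 11 weeks of age, were injected daily, 21 times in all, with THC at 10 mg/kg, the main psychoactive cannabinoid of cannabis, or with vehicle, from postnatal day 28 to day 48, and behavioral testing began at day 63. No allele other than the strain is given for any group, and the study's methods name another C57BL/6 substrain and a slightly higher age than the labels do. RNA was sequenced from tissue punches of the prefrontal cortex (PFC), striatum (DMS, a dorsomedial punch in the methods and dorsolateral striatum in the labels), ventral tegmental area (VTA), amygdala (Amy) and nucleus accumbens (NAc), each library being 1 region of 1 mouse. The regions were punched from the same brains, and since the labels do not tie libraries to a mouse, the tests between regions treated libraries of different regions as independent. This gave 119 libraries in 20 groups of region, sex and treatment, with 6 libraries in every group except the vehicle-treated male VTA group, which had 5.

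Midbrain dopaminergic neurons arise from the floor plate of the embryonic midbrain, where the forkhead factors Foxa1 and Foxa2 and the LIM homeodomain factor Lmx1b act in the progenitors. The nuclear receptor Nr4a2, also known as Nurr1, then turns on genes for dopamine synthesis and transport together with the homeodomain factor Pitx3, and the engrailed homeodomain factors En1 and En2 keep the neurons alive in the adult. Several of these factors have lives outside the dopaminergic system: Nr4a2 marks claustral and deep cortical neurons and belongs to a family of activity-induced receptors, and Lmx1b also specifies serotonergic neurons of the hindbrain. A punch holds many cell types, so fewer cells of a type and less RNA per cell cannot be told apart in any value below.

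Total counts per library ranged from 3090998 to 77042133 with a median of 22092612, and the lowest belonged to FTL_371, a vehicle-treated male VTA library. The PFC and DMS libraries were deposited in a table separate from that of the NAc, Amy and VTA libraries, so regions were tested only within a table. The counts of Xist and 4 Y-linked genes went against the labelled sex in 2 libraries, both from the THC-treated Amy groups, FTL_344 among the females and FTL_356 among the males. Amy comparisons were therefore also fitted without them. The identity of the VTA punches was carried by their dopaminergic effector genes: Slc6a3, the dopamine transporter, averaged 1176 CPM in the VTA and 0.775 CPM in the Amy.

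In GRCm38 coordinates of the GENCODE annotation, En1 lay at chr1:120602418-120607992 on the plus strand, En2 at chr5:28165694-28172166 on the plus strand, Pitx3 at chr19:46135685-46148326, Nr4a2 at chr2:57106830-57124003, Foxa1 at chr12:57540628-57546916, Foxa2 at chr2:148042877-148046969 and Lmx1b at chr2:33560965-33640511, the last 5 on the minus strand. In that annotation the start of Lmx1b was 682 bases from that of C130021I20Rik, a noncoding gene transcribed in the other direction. Pitx3 shared its last 10 bases with the opposing gene Elovl3. The bases before the RefSeq start (GRCm38.p6) are shown for Nr4a2, Foxa1 and Lmx1b, because the relations among these 3 members over the VTA libraries remained past the test after removal of the dopaminergic effector mean, and for En1 and Pitx3, because these had the highest r with the dopaminergic effector genes over all 23 VTA libraries. Each stretch holds no annotated exon of its own gene, runs 5′ to 3′ on the strand of that gene, and is in lower case with motif matches in capitals. Windows of 250 bases were cut at the first base of such an exon. This left 181 bases for En1, 240 for Foxa1 and 249 for Pitx3, whose stretches end short of the RefSeq start. RefSeq windows were matched for 6 of the 7 members, and En2 was the member not among them. In order, the stretches cover chr2:57124004-57124253 for Nr4a2, chr12:57546122-57546361 for Foxa1, chr2:33641099-33641348 for Lmx1b, chr1:120602237-120602417 for En1 and chr19:46148327-46148575 for Pitx3. That of Foxa1 lies in the intron of a longer annotated transcript. That of Lmx1b begins at a RefSeq start upstream of the GENCODE one and runs into C130021I20Rik, which covers chr2:33641193-33646354 on the plus strand.
Nr4a2: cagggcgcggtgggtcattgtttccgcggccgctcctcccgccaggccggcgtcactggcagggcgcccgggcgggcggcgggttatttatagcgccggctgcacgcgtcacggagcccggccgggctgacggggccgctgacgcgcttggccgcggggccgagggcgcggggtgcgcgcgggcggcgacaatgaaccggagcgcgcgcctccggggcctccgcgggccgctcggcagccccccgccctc
Foxa1: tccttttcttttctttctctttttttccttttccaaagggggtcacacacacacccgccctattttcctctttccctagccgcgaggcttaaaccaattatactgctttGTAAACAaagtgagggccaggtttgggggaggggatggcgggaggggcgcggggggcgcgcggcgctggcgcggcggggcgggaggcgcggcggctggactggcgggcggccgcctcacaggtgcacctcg
Lmx1b: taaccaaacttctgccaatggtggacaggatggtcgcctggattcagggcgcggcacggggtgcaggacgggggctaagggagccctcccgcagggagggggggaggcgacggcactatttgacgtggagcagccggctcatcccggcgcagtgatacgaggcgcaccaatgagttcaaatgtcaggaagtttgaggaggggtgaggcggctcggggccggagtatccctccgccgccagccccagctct
En1: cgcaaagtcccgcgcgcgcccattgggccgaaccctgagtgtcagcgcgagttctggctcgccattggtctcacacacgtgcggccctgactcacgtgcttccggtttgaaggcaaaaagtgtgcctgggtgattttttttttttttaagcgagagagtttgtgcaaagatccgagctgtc
Pitx3: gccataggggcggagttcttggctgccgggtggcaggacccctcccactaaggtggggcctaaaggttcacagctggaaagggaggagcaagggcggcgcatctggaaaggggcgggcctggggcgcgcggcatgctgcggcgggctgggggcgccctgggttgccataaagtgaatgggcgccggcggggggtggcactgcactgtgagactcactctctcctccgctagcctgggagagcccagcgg
Both strands were searched for the homeodomain core TAATTA, the NBRE of NR4A receptors AAAGGTCA and the forkhead motif TGTTTAC, none of which overlaps another. The only match in these 5 stretches was the forkhead motif on the reverse strand of Foxa1, 141 bases before its start, and it is also the only match in the windows of all 6 members. Over the full 250 bases before 32851 RefSeq starts, not cut at exons, the forkhead motif was found in 3.17%, the homeodomain core in 4.84% and the NBRE in 1.34%. The stretch before Nr4a2 was 80.0% G and C, against 62.5% for Foxa1, 65.2% for Lmx1b, 55.2% for En1 and 69.1% for Pitx3.

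All 7 members were highest in the VTA, and in each of them the lowest of the 23 VTA libraries lay above the highest of the 96 forebrain libraries. The share of all genes separated in this way was not counted, so nothing particular to the members is read from it. The PFC and DMS libraries enter here by level only, since they come from the other table. Levels are given as CPM (counts of the gene per 1000000 counts of the library), scaled by the trimmed mean of M-values over all 119 libraries. En1 averaged 65.6 ± 19.9 CPM in the VTA (SD, n = 23), Nr4a2 64.9 ± 11.6, Lmx1b 32.6 ± 6.29, Foxa1 30.4 ± 5.40, En2 22.6 ± 6.07, Pitx3 12.8 ± 3.68 and Foxa2 11.4 ± 3.46. For levels between genes, CPM was divided by the length of all annotated exons. On that scale En1 led with 25 ± 7.56 CPM per kb, followed by Nr4a2 with 16 ± 2.87, Foxa1 with 9.13 ± 1.62, Pitx3 with 8.41 ± 2.41, Lmx1b with 6.68 ± 1.29, En2 with 6.38 ± 1.72 and Foxa2 with 4.80 ± 1.46. From Foxa1 downward, neighbours in this order differed by less than the larger of their SDs. That spread between libraries is no test of the order, since all members were measured in the same libraries, and none was run.

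**Figure D1:**
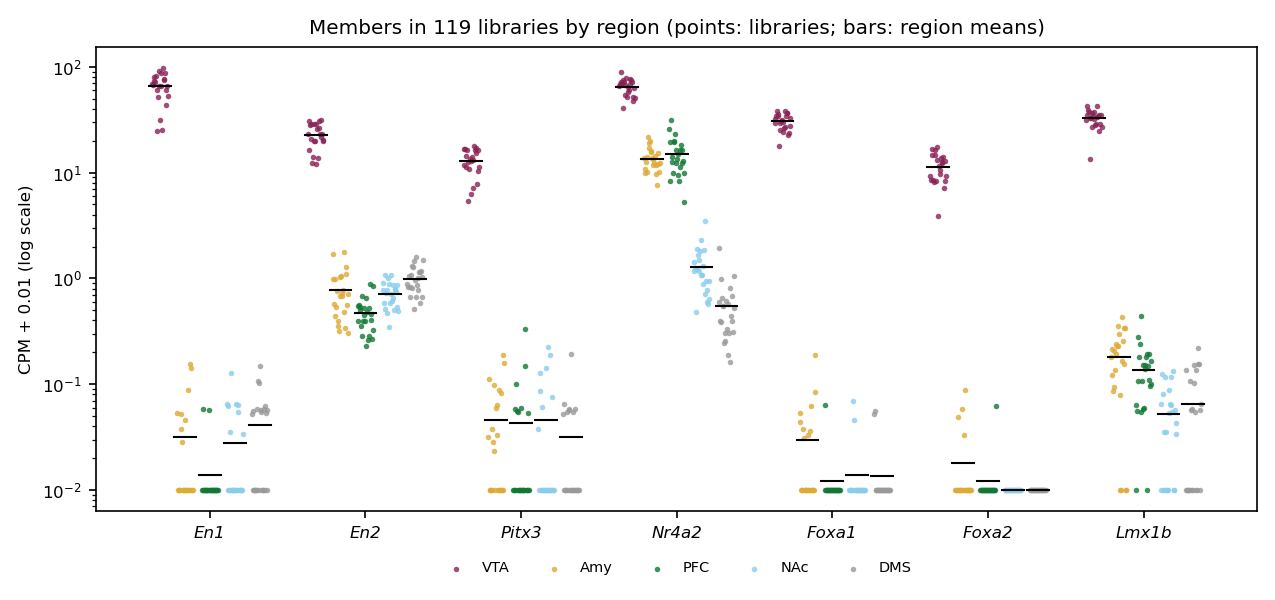
CPM of each member in the 119 libraries on a log axis, with 0.01 added so that libraries at 0 can be drawn, colored by region; each point is a library and each bar a region mean. All members peak in the VTA, Nr4a2 alone exceeds 5 CPM in the PFC and Amy, and En2 lies between 0.217 and 1.78 CPM in every forebrain library.

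In the forebrain the members fell into 3 patterns. En1, Pitx3, Foxa1 and Foxa2 were at the limit of detection. Foxa2 had 0 counts in all 24 NAc and all 24 DMS libraries, 1 count in the 24 PFC libraries together and 4 in the 24 Amy libraries. A count of 0 over the NAc libraries allows up to 0.00526 CPM (3 counts over their summed depth), so Foxa2 was at least 2163-fold higher in the VTA than in the NAc, and at least 1916-fold higher than in the DMS. Foxa1 had 11 counts over the Amy libraries and 1 or 2 over each of the other regions, En1 had 2 to 16 counts per region, and Pitx3 had 11 to 23. No forebrain library had more than 7 counts of any of these 4 genes. These limits and the intervals below cover counting error only.

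Lmx1b was low but measurable in the forebrain. Its 125 counts over the Amy libraries came to 0.183 CPM (95% exact Poisson interval 0.152 to 0.217), against 0.0421 CPM (0.0269 to 0.0626) from 24 counts over the NAc libraries. The PFC libraries gave 0.130 CPM (0.100 to 0.165) and the DMS libraries 0.0554 CPM (0.0368 to 0.0801). By edgeR's quasi-likelihood test Lmx1b was higher in the Amy than in the NAc by 1.92 log2 units (SE 0.36, adjusted p = 3.62e-06), and by 1.99 without FTL_344 and FTL_356. It was among the genes tested there only because its VTA counts passed the filter on low counts. Its level in the VTA was 189-fold that of the Amy.

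En2 was present at low level throughout. It averaged 0.984 ± 0.292 CPM in the DMS, 0.764 ± 0.407 in the Amy, 0.709 ± 0.194 in the NAc and 0.460 ± 0.173 in the PFC (SD, n = 24 each), with no library at 0. En2 was 1.08 log2 units lower in the PFC than in the DMS (SE 0.14, adjusted p = 2.28e-09). The Amy and NAc, neighbours in this order, were not told apart by the same test (log2 fold change 0.03, SE 0.18, adjusted p = 0.894), and the DMS and Amy, from separate tables, were not tested.

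Nr4a2 was the member with the highest level in the PFC and Amy. It averaged 15.0 ± 6.00 CPM in the PFC (range 5.29 to 31.4) and 13.5 ± 3.41 CPM in the Amy (7.54 to 21.5), whose ranges overlapped, and only 1.28 ± 0.666 CPM in the NAc and 0.541 ± 0.374 CPM in the DMS (SD, n = 24 each). The difference was 4.84 log2 units between PFC and DMS (SE 0.19, adjusted p = 1.27e-25) and 3.39 log2 units between Amy and NAc (SE 0.11, adjusted p = 3.54e-37). The VTA exceeded the Amy by 2.31 log2 units (SE 0.08) in Nr4a2, against 4.94 (SE 0.14) in En2. The order turned in the striatal regions, where the VTA mean of Nr4a2 was 50.9-fold that of the NAc and 120-fold that of the DMS, and that of En2 31.9-fold and 22.9-fold.

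A gene was called where its adjusted p was under 0.05 and its log2 fold change was 0.4 or more in either direction. All 7 members were called higher in the VTA than in the NAc, where 54.4% of 18295 genes were called, and than in the Amy, where 45.9% were. For En1, Pitx3, Foxa1, Foxa2 and Lmx1b these calls carry no weight, since the genes passed the filter on low counts only through the VTA. Between Amy and NAc 3 of 7 were called, Nr4a2, Lmx1b and Foxa1, where 27.6% of all genes were called, and each remained called without FTL_344 and FTL_356. Apart from Nr4a2 and En2, the members were tested there only through their VTA counts, so nothing is read from the 3 of 7 against that share. The Foxa1 call rested on 11 against 2 counts and was lost with DESeq2 (adjusted p = 0.185). Between PFC and DMS, where 51% of 17442 genes were called, the 2 members tested, Nr4a2 and En2, were both called.

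Other genes of the dopaminergic program were set beside the members. Of 11 further transcription factors of this lineage, 8 passed the filter on low counts within the Amy, and of these 4 were called higher and 2 lower in the VTA than in the Amy. The other 3 (Lmx1a, Otx2 and Neurog2) were tested only through their VTA counts, so their calls carry no weight. Lmx1a, the paralog of Lmx1b, averaged 14.4 CPM in the VTA and at most 0.320 CPM elsewhere, in the Amy, or 0.202 CPM there without FTL_343. Otx2, which patterns the midbrain, averaged 6.19 CPM in the VTA, 2.18 CPM in the NAc and 2.03 CPM in the Amy, or 1.31 CPM there without FTL_343. Of 10 effector genes of dopaminergic neurons, 9 passed the filter within the Amy, and all 9 were called higher in the VTA, by 2.06 to 10.56 log2 units. Chrna6 was the gene tested only through the VTA. Between VTA and NAc, 9 of the 10 effector genes were called higher in the VTA and 1 lower, without regard to which passed the filter within the NAc.

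In the VTA, 3 libraries stood apart: FTL_363 and FTL_368 of the THC-treated females, and FTL_371 of the vehicle-treated males, which was also the shallowest. Their 10 effector genes summed to 2237, 2843 and 2562 CPM, against 3775 to 6965 CPM in the other 20 libraries. Slc17a6, the vesicular glutamate transporter of midbrain glutamatergic neurons, was at 314.1, 357.7 and 362.8 CPM, and at no more than 280.9 CPM in the others. Other markers divided the 3 libraries: genes of GABAergic neurons (Gad1, Gad2, Slc32a1) summed to 385 CPM in FTL_368 and 315.2 CPM in FTL_371, below every other library, and to 939.6 CPM in FTL_363. Pou4f1, a marker of the red nucleus, was at 12.4 CPM in FTL_363, above every other library, and at 0 and 0.296 CPM in FTL_368 and FTL_371. The VTA comparisons were also fitted without these 3 libraries, a choice made after they were seen.

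The 3 libraries were not low in every member. En1 was at 24.9 CPM in FTL_363, 31.7 in FTL_368 and 25.5 in FTL_371, below all other VTA libraries (43.5 to 97.2 CPM), and Pitx3 was at 5.36, 6.24 and 7.10 CPM, also below all others. FTL_371 nevertheless held Nr4a2 at 60.4 CPM, between 57.7 and 76.9 CPM in the other 4 libraries of its group, and Foxa1 at 26.9 CPM, between 26.6 and 38.2. Lmx1b separated the 2 female libraries, with 13.3 CPM in FTL_363, the lowest of all, and 31.9 CPM in FTL_368. Foxa2 did so in the opposite direction, with 16.3 CPM in FTL_363 and 3.91 CPM in FTL_368, again the lowest of all. The part of cell composition, depth or treatment in these values was not tested.

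**Figure D2:**
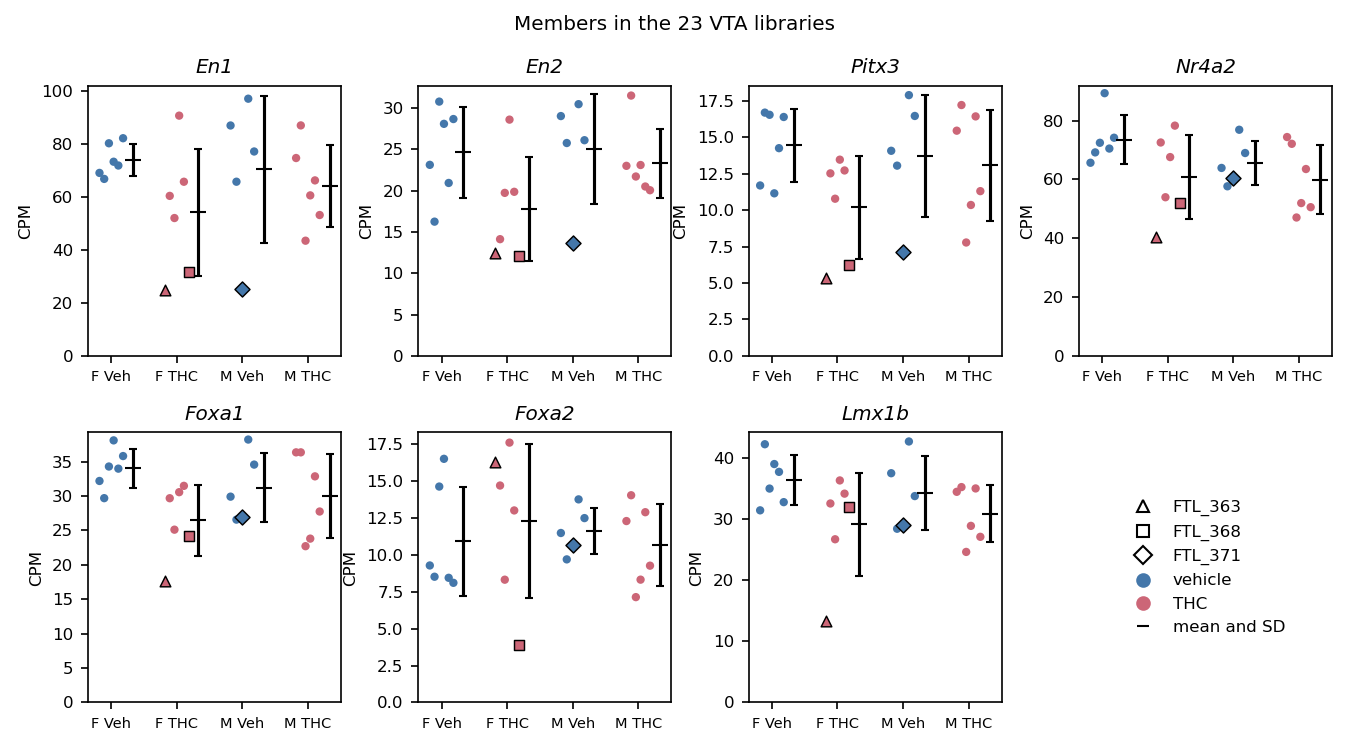
CPM of each member in the 23 VTA libraries by sex (F, M) and treatment; points are libraries, the outlined symbols mark FTL_363, FTL_368 and FTL_371, and the black bars give the mean and SD. En1 and Pitx3 are low in all 3 outlined libraries, whereas Nr4a2, Foxa1 and Lmx1b of FTL_371 lie among the other vehicle-treated males and Foxa2 of FTL_363 is near the top of its group.

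The first question of the design was whether THC during adolescence left the members at another level. In the female VTA no member was called by edgeR, and 0 of 15747 genes were (0%), with 1421 (9.02%) at an unadjusted p under 0.05. DESeq2 called 6 genes and no member. En1 ranged from 66.9 to 82.2 CPM with a median of 72.6 in vehicle-treated females and from 24.9 to 90.8 CPM with a median of 56.3 after THC. The groups overlapped, although 5 of 6 THC libraries lay below every vehicle library, and the log2 fold change was -0.45 (SE 0.27, edgeR adjusted p = 0.628). Without FTL_363 and FTL_368 it was -0.14 (SE 0.13).

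Foxa1 had the smallest unadjusted p of the members. It ranged from 29.7 to 38.1 CPM with a median of 34.1 in vehicle-treated and from 17.7 to 31.5 CPM with a median of 27.4 in THC-treated females. All 6 THC libraries lay below the vehicle median and 4 below every vehicle library. The log2 fold change of -0.37 (SE 0.12) had an unadjusted p of 0.00642 and an adjusted p of 0.512, and it was -0.23 (SE 0.08, unadjusted p = 0.0161, adjusted p = 0.930) without the 2 libraries.

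Pitx3 ranged from 11.2 to 16.7 CPM with a median of 15.3 in vehicle-treated and from 5.36 to 13.5 CPM with a median of 11.7 in THC-treated females (log2 fold change -0.51, SE 0.22, unadjusted p = 0.0357, adjusted p = 0.522). It was at -0.24 (SE 0.13) without the 2 libraries. The other log2 fold changes were -0.47 (SE 0.23) for En2, -0.32 (SE 0.20) for Lmx1b, -0.28 (SE 0.14) for Nr4a2 and 0.17 (SE 0.33) for Foxa2. Without the 2 libraries they came to -0.26 for En2, -0.17 for Lmx1b, -0.12 for Nr4a2 and 0.28 for Foxa2. Over the 12 fits that each left out 1 library Foxa2 ran from 0.039, without FTL_366, to 0.35, without FTL_368. Thus 2 of 7 members had an unadjusted p under 0.05, both lower after THC, against 4.38% of all genes lower at that p, and neither passed the adjustment.

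Genes outside the members were set beside these values. All 10 effector genes had negative log2 fold changes in the female VTA, with a median of -0.33 and none called: Th, the rate-limiting enzyme of dopamine synthesis, was at -0.43 (SE 0.26) and Slc6a3 at -0.37 (SE 0.26). Without FTL_363 and FTL_368 the median of the 10 was -0.06. Slc17a6 ranged from 129.5 to 250.1 CPM in vehicle-treated and from 207 to 357.7 CPM in THC-treated females. Glial genes also had negative log2 fold changes, with none called. All 4 microglial genes (Cx3cr1, P2ry12, Csf1r, Tmem119) had an unadjusted p under 0.05 and a median log2 fold change of -0.40, and their sum ranged from 159.4 to 196.4 CPM after vehicle and from 115.8 to 175.8 CPM after THC. Of 4 astrocytic genes 3 had such a p, all 4 were below 0, with a median of -0.19 and sums of 929 to 1110 CPM against 652 to 1104 CPM. Without the 2 libraries these medians were -0.36 and -0.20. The part of cell composition in the member values was not tested. When the mean of the effector genes entered the fit as a covariate, the log2 fold changes came to -0.08 (SE 0.07) for En1, -0.21 (SE 0.14) for Pitx3, -0.17 (SE 0.08, unadjusted p = 0.0423) for Foxa1, -0.16 (SE 0.16) for En2, -0.13 (SE 0.18) for Lmx1b, -0.08 (SE 0.10) for Nr4a2 and 0.29 (SE 0.39) for Foxa2. None was called. Among the 11 further transcription factors 0 were called and 7 had a negative log2 fold change, with a median of -0.20, with Lmx1a at -0.08 (SE 0.20) and Otx2 at 0.01 (SE 0.13). Without FTL_363 and FTL_368 the median of these factors was -0.06.

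In the male VTA no member was called, nor was any of 17103 genes (0%; 5.92% had an unadjusted p under 0.05, none of them a member). DESeq2 called 1 gene and no member. En1 was at 25.5, 65.8, 77.2, 87.0 and 97.2 CPM in the 5 vehicle libraries, and ranged from 43.5 to 87.1 CPM with a median of 63.5 after THC. The groups overlapped in all 7 members. The log2 fold changes ran from -0.18 (SE 0.27) for En1 to -0.07 (SE 0.14) for Foxa1. Over the 11 fits that each left out 1 library En1 ran from -0.33 (SE 0.18, unadjusted p = 0.1), without FTL_371, the lowest of the vehicle group, to -0.057, without FTL_372. Serotonergic genes (Tph2, Slc6a4, Fev) summed to 1.06 to 124 CPM in THC-treated and 0.296 to 17.2 CPM in vehicle-treated males, and Lmx1b, which serotonergic neurons also express, was at 28.9 CPM in the library with the highest sum and between 24.6 and 35.2 CPM in its group. In females these genes summed to 0.567 to 1.68 CPM after THC and 0.174 to 17.9 CPM after vehicle.

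With both sexes in the fit 0 members were called (0% of 16540 genes, with 10.2% at an unadjusted p under 0.05), with Foxa1 at -0.22 (SE 0.10, unadjusted p = 0.035) and En2 at -0.31 (SE 0.15, unadjusted p = 0.0429). No member was called between males and females in the VTA (log2 fold changes from -0.11 to 0.21, 0.109% of genes called) and none had an interaction of sex with treatment past the threshold (0% of 16881 genes called, with no member at an unadjusted p under 0.05).

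How the members varied from punch to punch was examined over the 23 VTA libraries, after removal of the 4 group means from log2 CPM. Pearson's r and Spearman's rho were computed for 28 relations, the 21 member pairs and each member with the mean of the 10 effector genes, with permutation within groups and adjustment over the 28. All 28 r values were positive and 20 passed an adjusted p of 0.05 (24 by rho). The share of other genes related this closely to a member was not counted, so nothing particular to the members is read from these counts. Among 16881 genes ranked by r with En1, the closest member, Pitx3, was at rank 46 and the farthest, Foxa2, at 2903. By r with En2 the members ran from rank 22 (En1) to 3382 (Lmx1b), and by r with Nr4a2 from 1 (Foxa1) to 644 (Foxa2). En1 followed the effector genes with r = 0.97 (rho 0.97, permutation p = 1e-05, the smallest that 100000 permutations can give, adjusted p = 5.6e-05), and r was 0.95 without the 2 libraries farthest from the median. Pitx3 followed them with r = 0.91 (rho 0.89, r = 0.86 without 2 libraries, adjusted p = 5.6e-05 by permutation). Foxa1 followed them with r = 0.81 (rho 0.85, r = 0.80 without 2 libraries). En1 and Pitx3 were related with r = 0.90 (rho 0.88, r = 0.85 without 2 libraries).

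The highest r of any member pair was that of Nr4a2 and Foxa1, with r = 0.94 (rho 0.93, r = 0.92 without 2 libraries, adjusted p = 5.6e-05 by permutation). Lmx1b was related to Nr4a2 with r = 0.80 (rho 0.74, r = 0.71 without 2 libraries) and to Foxa1 with r = 0.79 (rho 0.75, r = 0.66 without 2 libraries). En2 had r = 0.84 with its paralog En1 (rho 0.79, r = 0.76 without 2 libraries) and the weakest r with Lmx1b, 0.38 (rho 0.31, adjusted permutation p = 0.158). All r values among Nr4a2, Foxa1, Lmx1b, Pitx3 and En1 were at least 0.68.

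Foxa2 was the exception. Its r ranged from 0.06 with Lmx1b to 0.48 with Nr4a2 and passed with no other member, although by rho it passed with Nr4a2 (0.57), Foxa1 (0.55) and En1 (0.47). Without FTL_363, FTL_368 and FTL_371, of which the first held Foxa2 near its highest and the second at its lowest, r rose to 0.78 with Nr4a2, 0.76 with Foxa1, 0.70 with En1, 0.66 with Lmx1b and 0.73 with the effector genes, each past an adjusted p of 0.05 by permutation. Foxa2 still did not pass with Pitx3 (r = 0.49, adjusted permutation p = 0.0561) or En2 (r = 0.46, adjusted permutation p = 0.106). Over the same 20 libraries 22 of the 28 relations passed. The relation to the effector genes was r = 0.89 for En1, 0.88 for Foxa1 and 0.76 for Pitx3, so that Pitx3 was no longer second. En2 lost its relations with Pitx3 (r = 0.62 over 23 libraries and 0.17 over 20), Nr4a2 (0.49 and 0.29) and Foxa1 (0.56 and 0.39), none of which passed over the 20 by permutation.

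When the mean of the effector genes was also removed, 3 of 21 member pairs passed, against 14 of 21 before: Nr4a2 with Foxa1 (r = 0.88), Nr4a2 with Lmx1b (r = 0.61) and Foxa1 with Lmx1b (r = 0.57). The remaining 18 did not, and among them En1 with Pitx3 came to r = 0.15 and En2 with Pitx3 to r = -0.45.

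**Figure D3:**
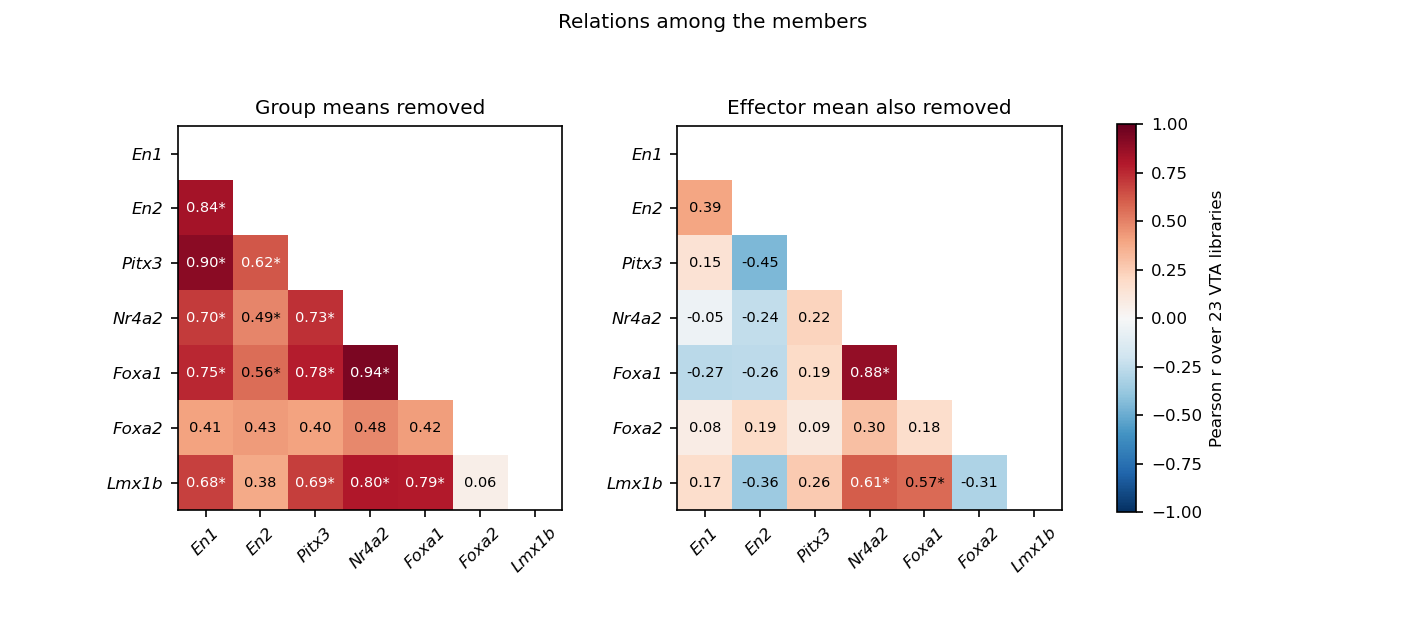
Pearson r of log2 CPM between members over the 23 VTA libraries, left after removal of the group means and right after removal of the effector gene mean as well; asterisks mark an adjusted permutation p under 0.05. On the left all r are positive, and on the right only the 3 pairs of Nr4a2, Foxa1 and Lmx1b are marked.

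**Figure D4:**
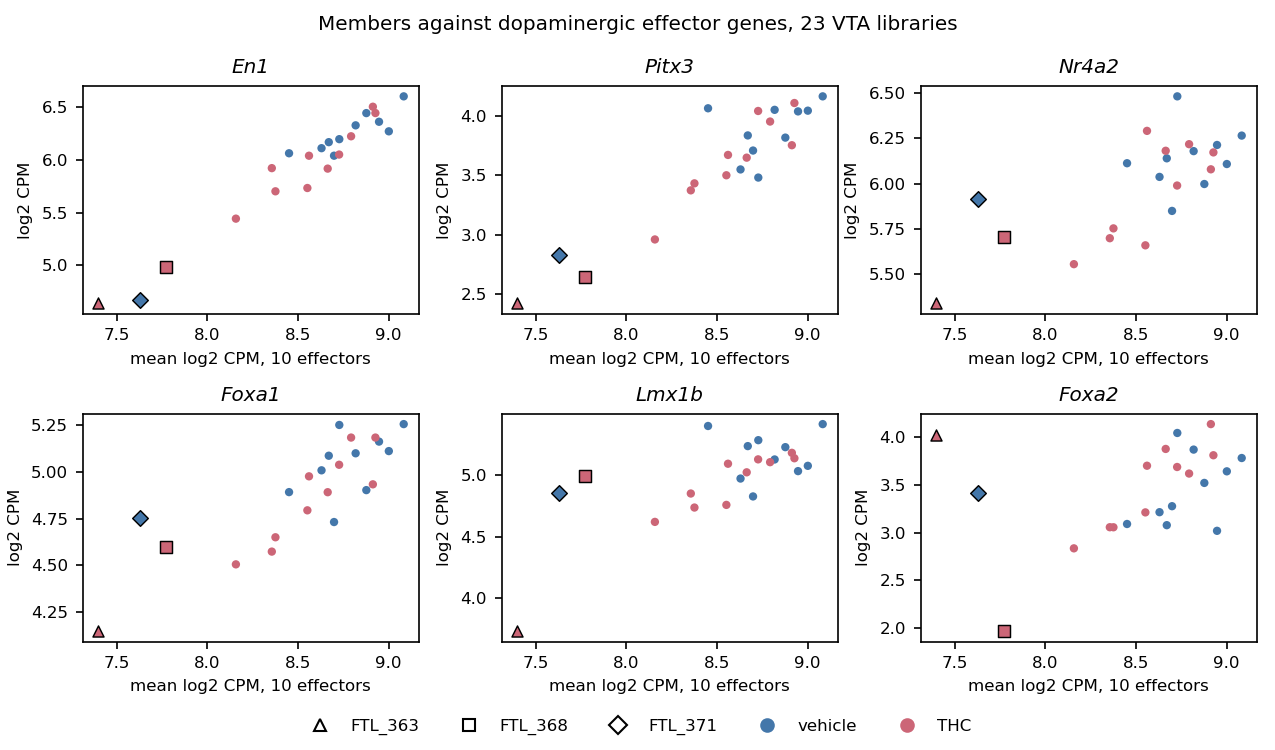
log2 CPM of 6 members against the mean log2 CPM of 10 dopaminergic effector genes in the 23 VTA libraries, before removal of group means, colored by treatment. En1 and Pitx3 fall steadily to the 3 outlined libraries, whereas Nr4a2, Foxa1 and Lmx1b of FTL_371 and FTL_368, and Foxa2 of FTL_363, lie above that course.

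The genes whose pattern was most like that of each member are given as a description, with no test. Over all 119 libraries the members found each other: Foxa1 and Foxa2 had r = 0.99, and En1 and Foxa1 r = 0.99, values set mainly by the step between VTA and forebrain. Nr4a2, with its cortical and amygdalar expression, was instead closest to Epha10, Sqle and Ntsr1 (r = 0.96 to 0.97 of log2 CPM). Among the 23 VTA libraries, with group means removed, En1 was closest to Th (r = 0.97), Slc6a3 (0.97) and the vesicular carrier Slc10a4 (0.97), and Pitx3 to Slc10a4 (0.94), Gucy2c (0.93) and Slc6a3 (0.92). En2 was closest to Npbwr1 (0.91), Cnpy1 (0.90) and the kappa opioid receptor gene Oprk1 (0.88). Nr4a2 and Foxa1 were closest to each other. The next closest genes to Nr4a2 were C130021I20Rik (0.89) and the sodium channel subunit gene Scn3b (0.88). For Foxa1 they were Scn3b (0.92) and Satb1 (0.90). Lmx1b was closest to its divergent noncoding neighbour C130021I20Rik (0.93), which averaged 60.2 CPM in the VTA and at most 0.0669 CPM elsewhere. Foxa2 was closest to C1ql4 (0.90), Asns (0.84) and Ttll12 (0.82).

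Outside the VTA only Nr4a2 and En2 passed the filter on low counts within a region, so only they were tested for treatment there. In the female Amy, Nr4a2 ranged from 9.98 to 13.9 CPM with a median of 11.8 after vehicle and from 15.5 to 21.5 CPM with a median of 18.03 after THC. The groups did not overlap: all 6 THC libraries lay above all 6 vehicle libraries. The share of all genes so separated was not counted, and Nr4a3, Ntng2 and Th, given below, were separated as well. Nr4a2 was higher after THC by 0.59 log2 units (SE 0.11, edgeR adjusted p = 0.0168), the only member call in the 10 tests of THC against vehicle, in a comparison where 1.57% of 17003 genes were called. Without FTL_344, whose sex genes go against its label, it was higher by 0.63 log2 units (adjusted p = 0.0283). Over the 12 fits that each left out 1 library, the log2 fold change ran from 0.53 to 0.63 and the adjusted p from 0.0105 to 0.0543, with the call lost without FTL_335 (0.0543), FTL_339 (0.0529), FTL_340 (0.0507) or FTL_342 (0.0516).

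**Figure D5:**
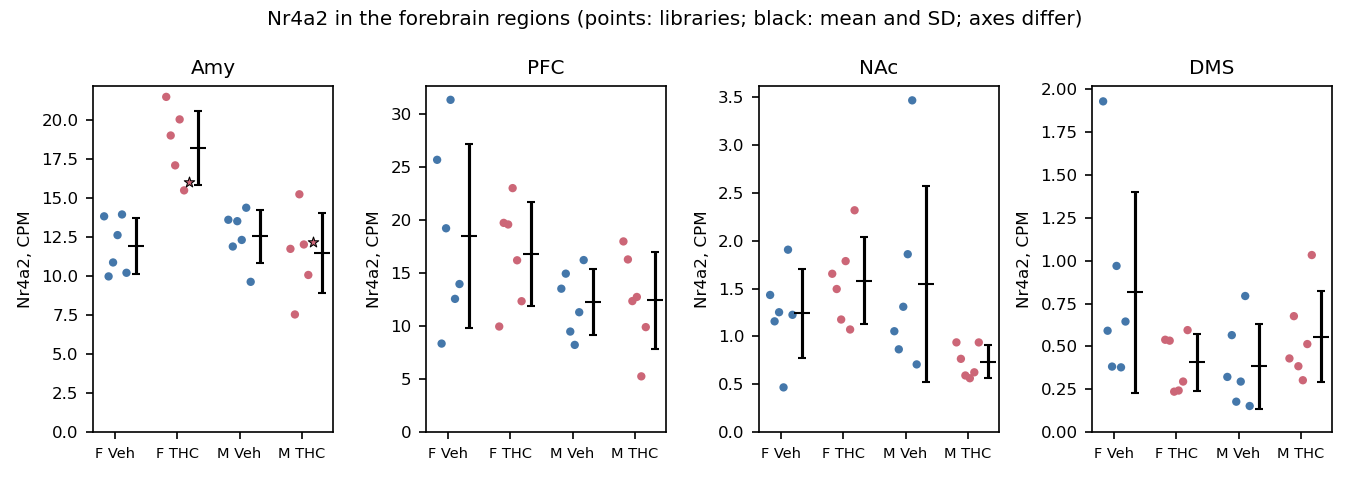
Nr4a2 in CPM in the 4 forebrain regions by sex (F, M) and treatment, with a separate axis for each region; points are libraries, stars the 2 Amy libraries that go against their labelled sex, and black bars the mean and SD. In the female Amy the 6 THC libraries lie above the 6 vehicle libraries, and in every other panel the groups overlap.

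The related receptors Nr4a1 and Nr4a3, immediate early genes of the same family, were at 0.52 (SE 0.16, adjusted p = 0.0953) and 0.58 log2 units (SE 0.11, adjusted p = 0.0224) in the female Amy. Nr4a3 ranged from 23.1 to 38.9 CPM after vehicle and from 39.8 to 52.0 CPM after THC, so it was called and its groups did not overlap either. It was at 0.55 (adjusted p = 0.0482) without FTL_344. Of 8 immediate early genes only Nr4a3 was called, with a median log2 fold change of 0.23 over the list, and Fos was the only gene of the list with a negative value (-0.60, SE 0.24).

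Markers of other cell types were set beside Nr4a2 in the female Amy. Of 4 cortical projection neuron genes, 3 were called higher after THC, Slc17a7 (0.76, SE 0.11), Tbr1 (0.94, SE 0.14) and Neurod6 (0.83, SE 0.18), and their sum ranged from 458 to 709.6 CPM after vehicle and from 763 to 1092 CPM after THC. The 4 genes of medium spiny neurons had a median log2 fold change of 0.65, all with an unadjusted p under 0.05 and none called, with sums of 139.6 to 348.3 CPM against 330.8 to 538 CPM. Of 5 genes of claustrum and deep cortex, where Nr4a2 is also expressed, Ntng2 was called (0.91, SE 0.08, adjusted p = 0.00014). It ranged from 9.74 to 11.7 CPM after vehicle and from 18.02 to 23.7 CPM after THC. Ccn2 (1.77, SE 0.54), Cplx3 (0.30, SE 0.13), Gng2 (-0.09, SE 0.06) and Nr2f2 (0.03, SE 0.11) were not called. Of the 5 genes, 3 had an unadjusted p under 0.05, all higher after THC. The 5 genes summed to 310.3 to 400.8 CPM after vehicle and 331.1 to 383.4 CPM after THC, and the groups overlapped. Most of this sum was Gng2, with means of 227.9 CPM after vehicle and 217.1 CPM after THC, and Nr2f2, with 105.2 and 109.1 CPM. The sum therefore says little of Ntng2, Ccn2 and Cplx3. The Ccn2 value came to 0.87 without FTL_339. Slc17a6 was at -0.58, not called. Slc17a7, Tbr1, Neurod6 and Ntng2 were also called without FTL_344. Depth differed as well, with medians of 26933795.5 counts in the vehicle and 44472649.5 counts in the THC libraries. The part of these differences in the Nr4a2 result was not tested.

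Over the 24 Amy libraries with group means removed, Nr4a2 and the mean of the claustrum and deep cortex list were related with r = 0.61 (rho 0.54, permutation p = 0.00272, adjusted over 6 relations 0.0163), r = 0.45 without the 2 libraries farthest from the median and r = 0.60 without FTL_344 and FTL_356. In the PFC the same relation had r = 0.53 (rho 0.40, adjusted permutation p = 0.0488 for r and 0.163 for rho) and rested on 2 libraries, without which r was 0.30. With the immediate early genes Nr4a2 had r = 0.30 in the Amy (adjusted permutation p = 0.27, r = 0.34 without FTL_344 and FTL_356 and 0.034 without the 2 libraries farthest from the median) and r = -0.47 in the VTA (rho -0.50, adjusted permutation p = 0.0488, r = -0.41 without 2 libraries). The other 2 of the 6 relations did not pass, the claustrum and deep cortex list in the VTA (r = -0.11, rho -0.22, adjusted permutation p = 0.65) and the immediate early genes in the PFC (r = -0.29, rho -0.33, adjusted permutation p = 0.27). These relations were chosen after the female Amy result had been seen.

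No dopaminergic effector gene was called higher in the female Amy. Th was lower after THC by 0.64 log2 units (SE 0.13, adjusted p = 0.0253), from 4.12 to 6.02 CPM after vehicle to 2.51 to 4.05 CPM after THC, and was the only effector gene of 9 tested to be called. The Th call was lost without FTL_344 (-0.63, adjusted p = 0.0519). Satb1 was the only further transcription factor of the lineage to be called, higher by 0.55 (SE 0.11, adjusted p = 0.0204), and by 0.58 without FTL_344 (adjusted p = 0.0378). En2 was at -0.63 (SE 0.37, adjusted p = 0.329), and ran from -0.83 to -0.31 over the 12 fits that each left out 1 library, with the last value without FTL_334, with 0.306 to 1.03 CPM after THC and 0.430 to 1.70 CPM after vehicle.

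In the male Amy Nr4a2 ranged from 9.63 to 14.4 CPM with a median of 12.9 after vehicle and from 7.54 to 15.2 CPM with a median of 11.9 after THC. The groups overlapped and the log2 fold change was -0.12 (SE 0.14, adjusted p = 1.00, 0% of 15321 genes called), and it ran from -0.22 to -0.018 over the 12 fits that each left out 1 library, the last without FTL_352. The difference between the sexes in the THC effect was -0.71 log2 units (SE 0.18), with an unadjusted p of 0.000681 and an adjusted p of 0.232 (0.0059% of genes called), and -0.77 (adjusted p = 0.196) without both libraries. An effect of THC on Nr4a2 that differs between females and males was therefore not called. With both sexes in the fit Nr4a2 was at 0.26 (SE 0.12, adjusted p = 0.686), or 0.27 without both libraries.

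In the striatal regions Nr4a2 was near 1 CPM and more scattered. In the male NAc it ranged from 0.709 to 3.46 CPM with a median of 1.18 after vehicle and from 0.565 to 0.939 CPM with a median of 0.697 after THC. All 6 THC libraries were below the vehicle median, and the log2 fold change was -1.04 (SE 0.35, unadjusted p = 0.00868, adjusted p = 0.21), in a comparison where 0% of 15932 genes were called and 16.7% had an unadjusted p under 0.05. Without FTL_325, the vehicle library at 3.46 CPM, it was -0.63 (adjusted p = 0.414). In the same libraries Slc17a6 was at 1.32 to 8.64 CPM after THC and 9.24 to 25.7 CPM after vehicle. The claustrum and deep cortex gene Gng2 was at 48.9 to 91.3 CPM after THC and 92.3 to 125.3 CPM after vehicle (log2 fold change -0.48, SE 0.15, adjusted p = 0.21). In both genes the groups did not overlap, and the share of all genes so separated was not counted. The other genes of that list overlapped between the groups. Their means after THC and vehicle were 1.80 and 1.75 CPM for Ccn2 and 0.512 and 0.472 CPM for Cplx3. They were 8.79 and 9.83 CPM for Ntng2 and 3.53 and 4.32 CPM for Nr2f2. The 5 claustrum and deep cortex genes summed to 59.2 to 109.4 CPM after THC and 106.1 to 144.2 CPM after vehicle. Most of this sum was Gng2, which averaged 74.4 CPM after THC and 103.7 CPM after vehicle. Cortical projection neuron genes summed to 1.75 to 11.6 CPM after THC and 4.73 to 98.7 CPM after vehicle. Other means were higher after THC, with overlapping groups. Medium spiny neuron genes summed to 1745 to 2771 CPM after THC and 1282 to 1946 CPM after vehicle. The means after THC and vehicle were 38.5 and 26.9 CPM for Nr4a1 and 9.92 and 7.73 CPM for Nr4a3. The part of these differences in the Nr4a2 value was not tested. In the female NAc Nr4a2 was at 0.36 (SE 0.27, adjusted p = 0.991, 0% called), and the interaction of sex with treatment was -1.40 (SE 0.45, unadjusted p = 0.00458, adjusted p = 0.384).

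In the female DMS Nr4a2 ranged from 0.379 to 1.93 CPM with a median of 0.618 after vehicle and from 0.237 to 0.595 CPM with a median of 0.415 after THC. Its log2 fold change was -1.0 (SE 0.40, unadjusted p = 0.0244, adjusted p = 0.479, 0.0127% of genes called), and 1 vehicle library, FTL_285, lay far above the rest at 1.93 CPM. The cortical projection neuron genes summed to 253 CPM in FTL_285, to 2.81 to 3.76 CPM in the other vehicle libraries and to at most 13.1 CPM after THC. Without FTL_285 the log2 fold change was -0.53 (adjusted p = 0.645). In the male DMS it did not pass the filter on low counts. For the interaction of sex with treatment in the DMS 2 members were tested and 0 called. Of these 1 had an unadjusted p under 0.05, with a positive value. Among the regions in which Nr4a2 is abundant, it was most variable relative to its mean in the PFC. There it was at -0.14 (SE 0.33) in females and 0.02 (SE 0.28) in males, with 0% of genes called in either sex and no member at an unadjusted p under 0.05. With both treatments in the fit, Nr4a2 was below the female level in males in the PFC by 0.51 log2 units (SE 0.21, unadjusted p = 0.0261, adjusted p = 0.231) and in the Amy by 0.28 (SE 0.12, unadjusted p = 0.0227, adjusted p = 0.733, and 0.27 without FTL_344 and FTL_356), neither of which was called (0.24% of genes were called in the PFC and 0.012% in the Amy). In the Amy the vehicle groups had the other order, with 12.6 ± 1.69 CPM in males and 11.9 ± 1.79 CPM in females (SD, n = 6 each). En2 was called in none of the forebrain tests of THC, with log2 fold changes from -0.63 in the female Amy to 0.26 in the female DMS. It did not pass the filter on low counts in the male PFC and was not tested there.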

How the data were processed

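RNA from punches of 5 brain regions was sequenced as 119 directional poly(A) libraries. Per the labels and methods, the authors trimmed reads with cutadapt 2.9, aligned them to mm10 with STAR 2.7.3a and quantified genes with RSEM 1.3.1, and the deposited values are expected counts per gene and library. These were rounded to whole numbers (4.75% and 5% of values in the 2 tables were not whole). The study's methods exclude 1 vehicle-treated male VTA sample for low RNA integrity before library preparation and then, from the sequenced data, 1 male VTA sample as an outlier. They count 119 sequenced libraries before that removal, as many as were analysed here, so the outlier appears to be among these. Samples were grouped by the labels. RSEM divides ambiguous reads among genes, which can shift genes at a few counts.

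Within each region and sex, THC was compared with vehicle in edgeR 4.0.16 (R 4.3.3; filterByExpr, TMM scaling, robust quasi-likelihood F test, Benjamini-Hochberg adjustment over all genes tested), with a call where the adjusted p was under 0.05 and the log2 fold change 0.4 or more either way, the study's thresholds. Sex, interaction and region contrasts used the same test, and p-values for single relations came from 100000 permutations within groups. log2 CPM used a prior count of 2, and SE is the log2 fold change divided by the root of the F statistic. Alternatives were DESeq2 1.42.0, its size factors, no filter, 1 surrogate variable (sva 3.50.0), 1 fit per region, a dopaminergic covariate and leaving out libraries. The functions were tested on simulated data. The genes described are the 7 members, the 3 genes most like each, and marker lists with a few effector and family genes named for each. Members and lists were chosen with earlier results of these data known.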

Additional observations from a re-analysis of the deposited data

Results flagged for a closer look

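In 56 groups of libraries tested for a member, 3 had a library farther from the rest than Dixon's 95% limit allows, and chance gives about 1 in 20, or 2.8 here. En2 was at 13.6 CPM in FTL_371 among the vehicle-treated VTA males, whose other libraries ranged from 25.8 to 30.5 CPM. En2 was at 31.5 CPM in FTL_375 among the THC-treated VTA males, against 20.04 to 23.1 CPM in the others. Nr4a2 was at 89.3 CPM in FTL_360 among the vehicle-treated VTA females, against 65.7 to 74.2 CPM in the others.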

How the results depend on the processing

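The count of members called moved in few alternatives: without a filter, 4 instead of 2 were called between PFC and DMS, and in the female Amy the count ranged from 0 to 1 over the fits without 1 library. With the effector mean removed, 3 of 21 member pairs passed over the VTA libraries instead of 14. Without TMM 13 passed, and En2 with Nr4a2 (permutation, adjusted p = 0.0768) did not. Without the shallowest library, FTL_371, 12 passed, and En2 with Nr4a2 (adjusted p = 0.0723) and En2 with Pitx3 (adjusted p = 0.0886) did not. Signs turned in these uncalled values: by DESeq2, En2 for sex by treatment in the NAc (-0.026); with 1 surrogate variable, En2 in the male DMS (-0.031) and Foxa2 in the female VTA (-0.32); with the dopaminergic covariate in the male VTA, En1 (0.050), Foxa1 (0.020) and Pitx3 (0.096); without 1 library, Foxa1 in the male VTA (-0.14 to 0.0068, the last without FTL_372); without a filter, Lmx1b for sex in the VTA (0.0040); and without FTL_363, FTL_368 and FTL_371, Foxa1 for sex (-0.042) and En1 (-0.19), Lmx1b (-0.018) and Nr4a2 (-0.031) for sex by treatment. Among relations with the effector mean removed, r turned to -0.047 for En1 with Nr4a2, -0.27 for En1 with Foxa1, -0.45 for En2 with Pitx3, -0.24 for En2 with Nr4a2, -0.26 for En2 with Foxa1, -0.36 for En2 with Lmx1b and -0.31 for Foxa2 with Lmx1b. The cause was not tested. No paired analysis was possible because nothing in the labels ties libraries of different groups to each other. En1, Pitx3, Foxa1, Foxa2 and Lmx1b did not pass the filter on low counts within a forebrain region at this depth, and treatments were not compared for them there.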
